A study of Homo sapiens with 23 samples.

Results

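The major histone gene cluster lies on chromosome 6, and its chromatin was described in NCI-H23 (H23) cells, a lung cancer line of the non-small cell type. Members were all called peaks whose summit lay between 26.01 and 26.30 Mb (first block, 0.29 Mb long) or between 27.09 and 27.87 Mb (second block, 0.78 Mb long) in the coordinates of human build hg19. They numbered 3513 of the 2889028 peaks in 22 deposited lists. The 0.79 Mb between the blocks, from 26.30 to 27.09 Mb, held 1329 further peaks and served as the reference. The limits are positions only.

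The study used chromatin immunoprecipitation followed by sequencing (ChIP-seq), which maps where a protein or histone modification sits on DNA. Its 23 samples were 22 immunoprecipitated libraries, with 2 replicate libraries for each of 11 targets, and 1 input, which was not analysed here. The targets were BRD2, 5 histone acetylation marks (H4K5ac, H4K8ac, H4K12ac, H3K27ac and H4K5acK8ac, the H4 tail acetylated at both lysines, detected with a mouse monoclonal antibody made by the submitters) and 5 histone methylation marks (H3K4me1, H3K4me3, H3K36me3, H3K9me3 and H3K27me3). All libraries came from the same line, grown in serum-containing medium. The treatment protocol names JQ1, a BET inhibitor, or DMSO, but no label assigns either to a library, so all 22 are described without a treatment. Whether replicates were separate cultures is not stated, and any spread given may be technical. For 1 library, H3K9me3 replicate 2, title and description disagree on the replicate number; the title was used. The lists held between 21580 and 277462 peaks; they give no read numbers, and the depth of sequencing is unknown. Between 0.348% and 64.7% of a list's peaks had a q above 0.05. The 2 highest shares were those of BRD2, 64.7% in replicate 1 and 28.1% in replicate 2. By this share BRD2 calls were weaker than those of the marks. By the share with a −log10 q of at least 5 they were not the weakest throughout. That share was 8.40% and 27.3% for BRD2, against 16.6% and 5.85% for H4K8ac. Whether requiring a peak in both lists removes this limit was not tested.

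Replication-dependent histone genes encode the core histones H2A, H2B, H3 and H4 and the linker histone H1, and are transcribed mainly in S phase, when new DNA is packaged. They are short and without introns, and lie close together, so that many promoters share a small stretch of DNA. H3K4me3 marks active promoters, histone acetylation accompanies open, transcribed chromatin, and BRD2 is a BET protein whose bromodomains bind acetylated lysine. H3K36me3 is laid down along transcribed gene bodies, while H3K27me3 and H3K9me3 are repressive marks of Polycomb and heterochromatin; H3K9me3 is also known over zinc finger gene clusters.

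In the RefSeq gene table of assembly GRCh38.p14, the chromosome 6 cluster comprised 55 protein-coding histone genes: 6 of H1, 12 of H2A, 15 of H2B, 10 of H3 and 12 of H4. Their order was interrupted by other genes. A run of 9 protein-coding genes from BTN3A2 to ZNF322, chiefly butyrophilin genes, separated H4C8 from H2BC11, and 5 genes from PRSS16 to ZNF184 separated H2AC12 from H2BC13. The table listed 34 and 41 transfer RNA genes in these 2 runs. The table is not in the build of the lists, so no gene was placed on a peak, and regions are named by position. The 5 promoters below show what the cluster's start sites look like: for each histone class, the first gene in table order with an entry, leaving out the pair H2AC1 and H2BC1, which lies apart. Each line gives 150 bases ending just before the RefSeq start (GRCh38.p14, 5′ to 3′ on the gene's strand). Capitals mark matches to the TATA box TATAAA, the CCAAT box CCAAT and the octamer ATTTGCAT on either strand.
H1-1: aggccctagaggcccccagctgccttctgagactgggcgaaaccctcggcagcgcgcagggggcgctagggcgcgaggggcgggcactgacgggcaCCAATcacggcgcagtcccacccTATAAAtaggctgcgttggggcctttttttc
H3C1: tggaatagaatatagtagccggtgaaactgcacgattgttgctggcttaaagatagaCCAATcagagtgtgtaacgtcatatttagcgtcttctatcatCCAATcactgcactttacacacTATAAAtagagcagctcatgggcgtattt
H4C2: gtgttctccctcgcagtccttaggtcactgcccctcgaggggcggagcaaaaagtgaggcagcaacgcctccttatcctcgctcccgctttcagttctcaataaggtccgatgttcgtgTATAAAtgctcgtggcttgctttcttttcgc
H2AC4: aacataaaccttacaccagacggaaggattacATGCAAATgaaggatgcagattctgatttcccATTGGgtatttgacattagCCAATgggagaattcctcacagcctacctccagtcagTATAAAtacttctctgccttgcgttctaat
H2BC3: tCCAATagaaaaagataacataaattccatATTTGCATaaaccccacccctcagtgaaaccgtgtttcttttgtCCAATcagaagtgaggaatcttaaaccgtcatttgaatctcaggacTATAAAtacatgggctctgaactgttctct
They come from chromosome 6 at 26017788 to 26017937 on the minus strand (H1-1), 26020301 to 26020450 on the plus strand (H3C1), 26027284 to 26027433 on the minus strand (H4C2), 26033619 to 26033768 on the minus strand (H2AC4) and 26043714 to 26043863 on the minus strand (H2BC3). All 5 hold a TATA box close to the start, and the H2A and H2B promoters also hold an octamer. Of 50 histone genes of the cluster with an entry of 300 bases, 33 held TATAAA, against 12% of 27305 promoters of all genes. CCAAT was found in 43 of 50, against 35.7%. The octamer was found in 22 of 50, against 1.80%, and 21 of the 22 were H2A or H2B genes (9 of 11 and 12 of 15). These matches describe letters in a window and were not tied to any peak.

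H3K4me3 was densest in the blocks. The first block held 21 peaks in replicate 1 and 23 in replicate 2, the second block 63 and 66, and the interval 32 in each. That is 80.8 ± 3.3 peaks per Mb over both blocks (SD, n = 2 libraries) against 40.5 in each interval library and 6.65 ± 0.16 in the rest of chromosome 6. Both libraries were higher in the blocks, by 1.94-fold and 2.05-fold over the interval. By bases, H3K4me3 peaks covered 28.8% and 29.0% of the first block, 18.3% and 18.4% of the second and 7.02% and 7.07% of the interval. No window of the first block's length among 9287 tiled over the autosomes, tiles over the cluster included, was covered to the same extent in either library, and 1 of 3468 windows of the second block's length reached that block's share.

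The acetylation marks followed the same order, first block above second block above interval, by covered bases in every library. H3K27ac, a mark of active promoters and enhancers, covered 46.3% and 64.4% of the first block, 23.3% and 30.4% of the second and 8.64% and 11.2% of the interval. In the second replicate a single H3K27ac peak of 30299 bp ran from 26182548 to 26212846, whereas the widest in the first replicate was 10986 bp. H4K5acK8ac covered 35.1% and 39.6% of the first block, 18.0% and 21.3% of the second and 6.09% and 7.66% of the interval. H4K5ac lay close to it, at 38.7% and 40.1%, 18.9% and 19.5%, and 7.44% and 7.50%. H4K12ac had the largest ratio among the acetylation marks, with 14.9% ± 1.6 of both blocks covered against 3.57% ± 0.15 of the interval (SD, n = 2). H4K8ac had the smallest, with 10.6% ± 3.0 against 4.35% ± 1.4, and its replicates covered 20.9% and 14.8% of the first block. H3K4me1, known from enhancers and promoter flanks, covered 19.2% and 32.5% of the first block, 11.5% and 22.4% of the second and 6.40% and 12% of the interval.

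**Figure D1:**
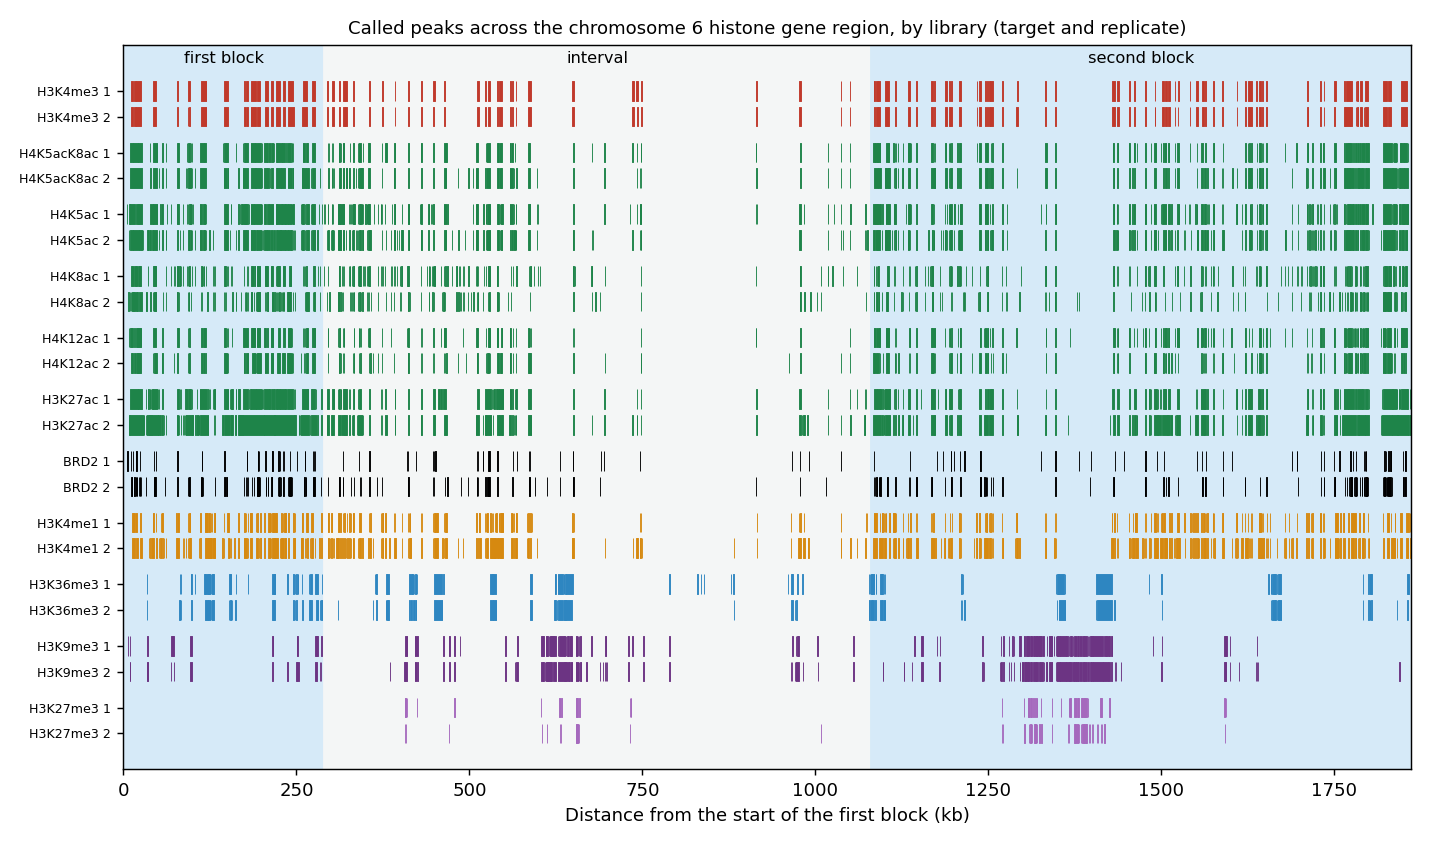
Called peaks of each library (rows, target and replicate number) against the distance in kb from the start of the first block, with the blocks shaded blue and the interval grey; the narrowest peaks are drawn wider than scale so that they can be seen. H3K4me3, acetylation and BRD2 crowd into the first block and the far end of the second, H3K27me3 has no peak in the first block, and H3K9me3 forms a broad patch within the second.

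BRD2 was also denser in the blocks, but its libraries differed. Replicate 1 had 33 peaks in the first block, 31 in the interval and 49 in the second block. Replicate 2 had 71, 42 and 99. Density over both blocks was 76.6 and 159 peaks per Mb, against 39.2 and 53.2 in the interval, so both libraries were higher in the blocks, by 1.95-fold and 2.99-fold. The mean over libraries, 118 ± 58 per Mb against 46.2 ± 9.8, carries a spread between replicates above the interval's density. BRD2 peaks covered 3.24% and 10.7% of the first block, and 70 and 7 of the 9287 autosomal windows reached these shares. Among strong BRD2 peaks (−log10 q of 5 or more) the excess of the blocks over the interval was 11.4 ± 15.8 peaks per Mb, which is within the spread between libraries.

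The kinds of histone mark were compared by the log2 ratio of peak counts per Mb, blocks over interval, with 1 peak added to each count. The acetylation marks averaged 1.09 ± 0.24 and the methylation marks 0.61 ± 0.35 (SD, n = 5 marks each), a difference of 0.48 with an exact two-sided permutation p of 0.0476. The values overlapped: H4K5ac, the lowest acetylation mark, was at 0.89, below H3K4me3 at 0.97 and H3K4me1 at 0.94. H3K9me3, H3K36me3 and H3K27me3 were at 0.17, 0.35 and 0.63. The difference did not pass 0.05 in either replicate alone (exact permutation p of 0.0556 without replicate 1 and 0.0635 without replicate 2) or against the rest of chromosome 6 (exact p of 0.127). The marks are not independent units: 85.5% of the first-block H4K5acK8ac peaks of replicate 1 overlapped H4K5ac of both lists, and the methylation marks include both active and repressive ones, so the p describes these 10 marks only. All other differences are given as values with the spread of 2 libraries. Blocks and interval were measured in the same 2 libraries, too few for any exact permutation test to reach 0.05. Even taken as unpaired, 2 values against 2 give a smallest two-sided exact permutation p of 0.333.

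**Figure D2:**
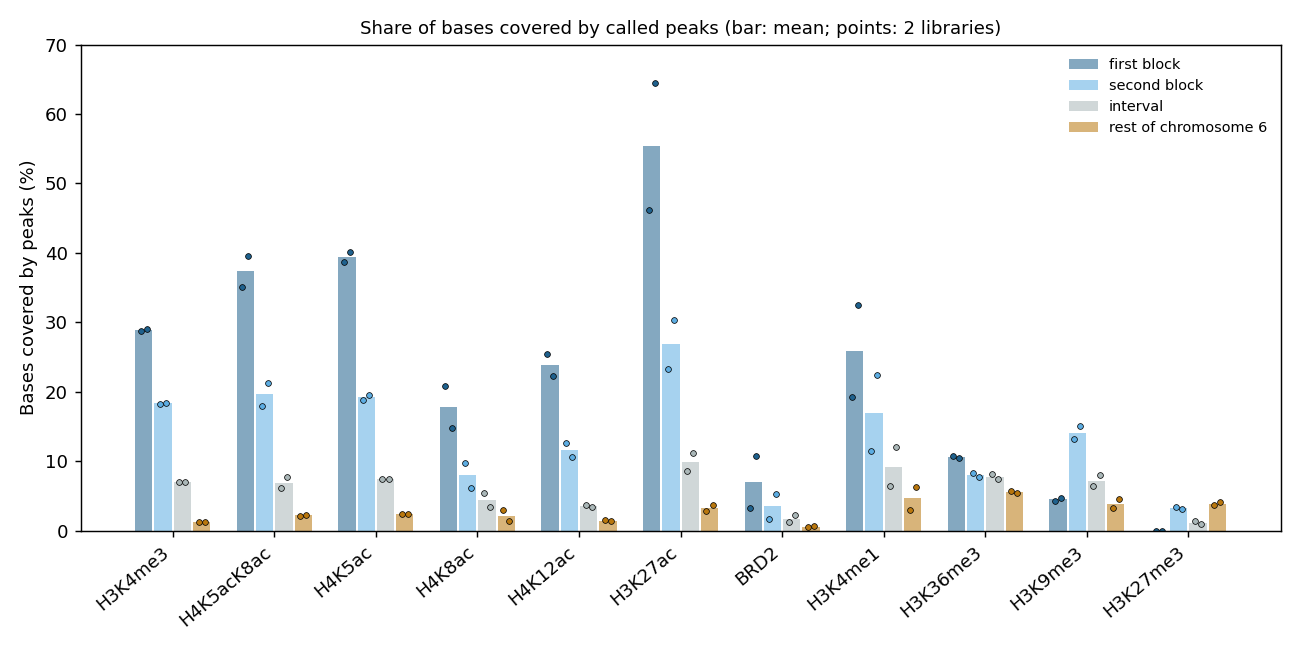
Percent of bases covered by called peaks of each target in the first block, second block, interval and rest of chromosome 6; bars are means and points the 2 libraries. H3K27ac reaches 46.3% and 64.4% of the first block, while H3K27me3 is at 0 there and H3K9me3 is highest in the second block.

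The H3K4me3 members were merged into H3K4me3 regions, stretches with a peak in both H3K4me3 lists: 20 in the first block, 62 in the second and 32 in the interval, of 20506 in all. Regions of the first block were wide, with a median of 4526 bp against 2027 bp in the second block, 1489 bp in the interval and 1905 bp over all chromosomes. Wider than 5 kb were 8 of 20, 6 of 62 and 0 of 32 regions, against 3.38% of all. Their median height was above that of the interval but not above that of all regions. The median H3K4me3 fold enrichment over the caller's local background was 51.8 and 71.3 in the first block and 54.6 and 63.2 in the second. Over the interval it was 42.4 and 52.8, and over all regions 64.5 and 72.2. The widest region of the blocks, 27856511 to 27865113 (8603 bp), closed the second block, and 3 of the next 4 in width, at 26194102 to 26201829, 26121584 to 26129082 and 26248280 to 26255736, were between 7457 and 7728 bp.

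Of the acetylation marks, all overlapped most first-block regions, and all but H4K8ac most second-block regions, by at least 1 bp, in both lists. In the first block H4K5acK8ac was present at 19 of 20 regions and in the second at 57 of 62, against 84.5% of all H3K4me3 regions. H4K5ac gave the same 19 and 57, against 82.8%. H4K12ac was at 19 of 20 and 53 of 62, against 78.4%, and H3K27ac at 20 of 20 and 58 of 62, against 77.5%. These shares were near or above the background. H4K8ac differed between the blocks, with 19 of 20 regions in the first (95%, 95% Wilson interval 76.4% to 99.1%) but 30 of 62 in the second (48.4%, 36.4% to 60.6%), against 55.4% of all. The second-block count depended on the list. Replicate 1 marked 46 of its 62 regions (74.2%, against 78.2% of all) and replicate 2 marked 31 (50%, against 57.3%), while each marked 19 of 20 in the first block. Among regions of 4 kb or more, H4K8ac was in both lists at 11 of 11 in the first block and 6 of 7 in the second. Since H4K8ac was the least frequent, the same counts, 19 and 30, held all 5 acetylation marks, against 51.5% of all. H3K4me1 was at 20 of 20 and 54 of 62, against 84.6%. Intervals here cover counting error only and treat regions as independent.

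The single first-block region without the 4 H4 marks, at 26129236 to 26129874, was 639 bp wide with a weak H3K4me3 fold of 3.57 and 3.02, and was chosen for mention after its values were seen. Each region was then given the highest fold of any overlapping peak, so that 1 wide peak can count for several regions. At first-block regions with the mark, the median H3K27ac fold was 70.7 and 59.2, against 27.8 and 26.2 over all H3K4me3 regions. H4K5acK8ac stood at 26.9 and 32.6, against 15.9 and 15.3, and H4K5ac at 11.7 and 13.2, against 7.67 and 7.55. Over all H3K27ac member peaks of the first block, weak ones included, the median fold was 3.99 and 3.47, close to the 3.54 and 3.62 of the whole lists. In the second block the median H4K5acK8ac fold was 12 in both libraries, below the median over all regions.

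BRD2 was found in both lists at 16 of 20 first-block regions (80%, Wilson interval 58.4% to 91.9%) but at 20 of 62 second-block regions (32.3%, 22% to 44.6%) and 11 of 32 in the interval (34.4%), against 50.6% of all. Taken list by list, replicate 1 marked 80% of the first-block regions and 33.9% of the second, against 52.3% of all, and replicate 2 marked 95% and 67.7%, against 67.6% of all. The first block was above the second in both libraries, whereas the second block was below the genome-wide share in replicate 1 only. Among regions with all 5 acetylation marks, BRD2 was at 16 of 19 in the first block, 14 of 30 in the second and 10 of 15 in the interval, against 79.8% of all such regions. Without all 5 marks it was at 0 of 1, 6 of 32 and 1 of 17. With BRD2 peaks limited to a −log10 q of at least 5, 8.54% of the regions of both blocks kept BRD2 in both lists, in place of 43.9%.

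Width went along with BRD2. In the first block BRD2 was at 10 of 11 regions of 4 kb or more, 5 of 6 of 2 to 4 kb and 1 of 3 under 2 kb. In the second block the counts were 4 of 7, 8 of 25 and 8 of 30, and over all chromosomes 83.2%, 69.1% and 32.5%. These counts require a peak in both lists, and in the second block replicate 1 marked 21 of 62 regions and replicate 2 marked 42; its widest class held few regions. Where BRD2 was called, it was weaker than over all H3K4me3 regions with BRD2, though not low within its lists. Its median best fold was 3.88 and 5.70 at first-block regions and 3.62 and 4.97 at second-block regions, against 4.33 and 7.11 over all H3K4me3 regions with BRD2. In the interval it was 4.58 and 5.77. The median percentile of the best fold within its list was 84.0 and 74.7 in the first block and 80.1 and 69.7 in the second. Over all H3K4me3 regions with BRD2 it was 88.7 and 82.2.

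**Figure D3:**
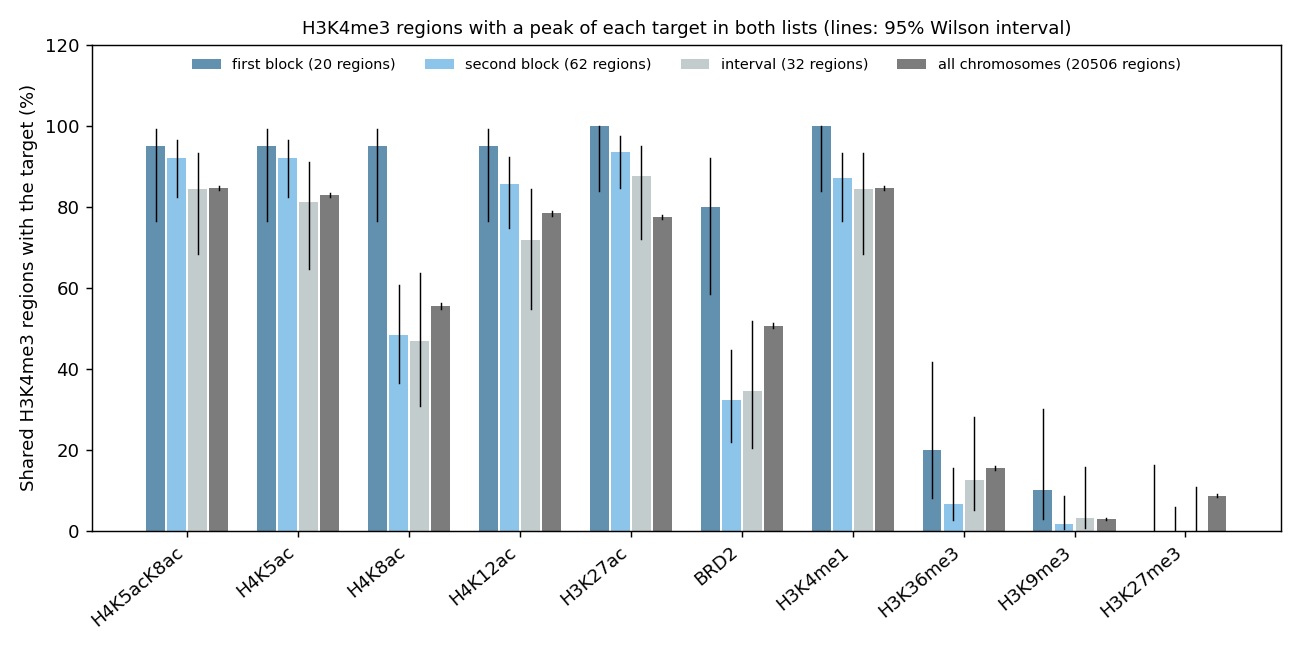
Percent of shared H3K4me3 regions that hold a peak of each target in both of its lists, by zone and over all chromosomes, with 95% Wilson intervals as lines. BRD2 and H4K8ac are higher in the first block (80% and 95%) than in the second (32.3% and 48.4%), where the H4K8ac interval includes the genome-wide 55.4% and BRD2 was below the genome-wide share in replicate 1 only; the other acetylation marks are high in both blocks.

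The 2 strongest BRD2 regions of the blocks were narrow. The region 27355733 to 27357713 (1981 bp, second block) had BRD2 folds of 7.62 and 17, and 26087228 to 26088694 (1467 bp, first block) had 6.97 and 18.7. Both held all 5 acetylation marks. The wide region 26268713 to 26275373 followed with 6.31 and 13.8. At the widest region of the blocks, 27856511 to 27865113, the folds were 5.16 and 7.73, and at 26194102 to 26201829 BRD2 was called in replicate 2 only, with a fold of 3.27. The interval held a stronger site than either block, at 26520536 to 26524030, with folds of 12.1 and 23.8. Of block regions without BRD2 in either list, the widest was 27634654 to 27641261 (6608 bp, second block), and the next was 2557 bp wide. The 6608 bp region had H3K4me3 folds of 53.6 and 62.7 and 4 acetylation marks, H4K8ac being absent from at least 1 list.

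**Figure D4:**
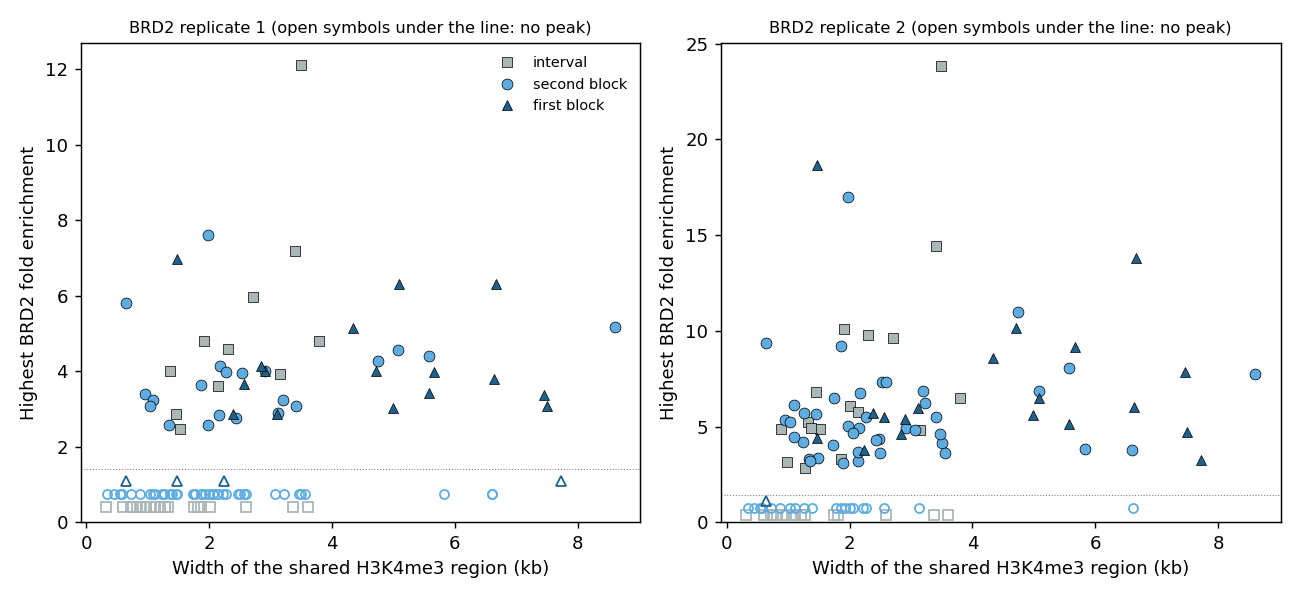
Highest BRD2 fold enrichment at each shared H3K4me3 region against the region's width in kb, for BRD2 replicate 1 (left) and replicate 2 (right, another axis range); open symbols under the dotted line are regions without a BRD2 peak. First-block regions (triangles) extend to 7.73 kb, and 16 of 20 carry BRD2 in replicate 1 and 19 of 20 in replicate 2. Many narrow second-block regions (circles) carry none, and the highest value in both lists is an interval region (12.1 and 23.8).

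BRD2 members overlapped H3K4me3 more often than the whole BRD2 lists did, but H3K4me3 also covered more of these zones. It covered 28.8% and 29.0% of the first block, 18.3% and 18.4% of the second and 7.02% and 7.07% of the interval. In the rest of chromosome 6 it covered 1.31% in each library. The overlap that coverage alone would give was not computed. In the first block 31 of 33 replicate 1 peaks overlapped H3K4me3 of both lists, against 28.2% of that list, and 62 of 71 replicate 2 peaks did, against 47.4%. In the second block 32 of 49 and 82 of 99 did. Interval peaks were also above the whole lists, at 17 of 31 and 28 of 42, but below both blocks. With H4K5acK8ac the first-block counts were 31 of 33, against 35.3%, and 67 of 71, against 63.8%. The second-block counts were 32 of 49 and 95 of 99, and those of the interval 18 of 31 and 31 of 42. H4K5acK8ac itself covered 35.1% and 39.6% of the first block, against 2.12% and 2.31% of the rest of chromosome 6. Overlap with H3K36me3 of both lists was rare, at 1 of 33 and 0 of 71 first-block peaks, but it was also low over the whole lists (7.06% and 5.84%).

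H3K36me3 was present in both blocks and denser in the first. The first block held 131 and 103 peaks per Mb, the second 48.7 and 43.6, the interval 54.4 and 46.8 and the rest of chromosome 6 43.3 and 42.4. Both libraries were thus higher in the first block than in the interval, by 2.41-fold and 2.21-fold, while the second block was slightly below the interval. By bases the zones differed less: it covered 10.7% and 10.4% of the first block, 8.32% and 7.76% of the second and 8.08% and 7.47% of the interval, against 5.67% and 5.46% of the rest of chromosome 6. Shares at or above the first block's were reached by 2453 and 2418 of the 9287 windows. In the first block the median distance from an H3K36me3 summit to the nearest H3K4me3 region was 2.75 and 3.30 kb, close to the 3.52 and 4.17 kb of H3K9me3 summits there. At H3K4me3 regions it was found in both lists at 4 of 20 in the first block and 4 of 62 in the second, against 15.4% of all. The widest H3K36me3 peak of the second block, 27415777 to 27439107 in replicate 1 (23331 bp, fold 20.8) and 27416274 to 27439136 in replicate 2 (22863 bp, fold 14.0), lay mostly in a stretch without H3K4me3 and ended in the H3K4me3 region 27438765 to 27442229, 1 of the 4 just counted.

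Repressive marks divided the blocks. H3K27me3 had no peak in the first block in either list, and the second block held 35 and 38 peaks, covering 3.41% and 3.07%. Over both blocks its density, 34.1 ± 2.0 peaks per Mb (SD, n = 2), was above the interval's 21.5 ± 3.6 and below the 68.5 ± 10.2 of the rest of chromosome 6. Of the 9287 windows of the first block's length, 1718 and 1436 also had none. No H3K4me3 region of the blocks held H3K27me3 in both lists (0 of 20 and 0 of 62), against 8.61% of all. The interval did not differ in this, with 0 of 32. H3K9me3 covered 4.23% and 4.74% of the first block and 13.1% and 15.0% of the second, against 6.41% and 7.99% of the interval. It coincided with an H3K4me3 region in both lists at 2 of 20 and 1 of 62, against 2.78% of all. These were 26282434 to 26287516 and 26223091 to 26225654, both with all 5 acetylation marks and BRD2, and 27647300 to 27648027, which had neither all 5 nor BRD2.

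Most of the second block's H3K9me3 lay in its longest stretches without H3K4me3. From 27357714 to 27438764 (81.1 kb) H3K9me3 covered 80.4% and 87.9%, H3K36me3 42.5% and 39.5% and H3K27me3 22% and 21.8%, while H3K27ac covered 0% and 1.17% and BRD2 0.39% and 0.23%. The region 27355733 to 27357713, 1 of the 2 strongest BRD2 regions of the blocks, bordered this stretch. The third longest, 27302804 to 27342091 (39.3 kb), had H3K9me3 over 53.6% and 61.3%, H3K27me3 over 16.1% and 12.3%, and no H3K36me3. The other long stretch, 27662838 to 27719930 (57.1 kb), carried no H3K9me3 or H3K27me3, and H3K36me3 covered 21.6% and 19% of it.

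Within the blocks the active marks were uneven. In bins of 50 kb, picked for mention after their values were seen, H3K4me3 of replicate 1 covered 44.1% of the bin from 26210001 and 47.0% of the bin from 27760001. The latter held 9 H3K4me3 regions and 8 and 25 BRD2 peaks, and the next bin 7 and 15. The bin from 27360001 had no H3K4me3 region and 79.3% of its bases under H3K9me3 of replicate 1. The interval was uneven too: from 26758951 to 26923720 (165 kb) none of the acetylation, BRD2 or H3K27me3 lists had a peak. H3K9me3 covered 1.21% and 1.5%, H3K36me3 1.59% and 0.17% and H3K4me1 0% and 0.15%. The stretch was thus nearly empty of active and repressive marks alike, and the reason was not tested. With that stretch left out of the interval, a step chosen after seeing the data, the blocks still exceeded it by 29.7 ± 3.3 H3K4me3 peaks per Mb (SD, n = 2), in place of 40.3 ± 3.3, but H3K9me3 turned to a difference of -7.38 peaks per Mb, blocks minus interval, in place of 10.4.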

How the data were processed

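ChIP-seq peak lists of 22 libraries were used as deposited. Per the submitters' processing notes BWA, MACS2 and build hg19 were involved; versions, settings and the control are not given in the sources used here. Per the layout of the deposited lists, fold enrichment is a ratio to the caller's local background, significance is −log10 p and −log10 q, the score was not used, and the last column (other) is the summit's offset in bp. These are the authors' values and were only compared inside their own list. Lists were not pooled and no read depth is known.

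Computed here with Python 3.11.15, numpy 2.4.6, pandas 2.3.3, scipy 1.17.1 and matplotlib 3.10.9: peaks per Mb by summit, bases covered, H3K4me3 regions (merged stretches with a peak in both lists), overlaps of at least 1 bp, Wilson intervals at the 95% level, and 1 exact permutation test (two-sided, each mark counted once). Peaks and regions are not replicates, so no p was computed over them. The functions were tested on simulated data: none of 6000 overlaps differed from a count base by base.

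Named regions follow a rule: the 5 widest of the blocks, the 5 with the highest BRD2 percentile, the 5 widest without BRD2, the 5 widest of the interval, those with H3K9me3 or H3K27me3 in both lists, and the 3 longest stretches without H3K4me3; the text names a part of them. Exceptions are stated as such. The members and lists were chosen with earlier results of these data known. Groups and replicate numbers came from titles. Same-numbered libraries did not deviate together (r between -0.11 and 0.27 over 55 pairs of targets, 1 above 0.1), so numbers were not used as pairs. The planned count of peaks at histone start sites was not made, since the RefSeq tables used are in GRCh38.p14. Alternatives were q limits, another reference, shortened zones, joined peaks, stricter or looser overlap and each replicate alone. Not every alternative was applied to every result.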

Additional observations from a re-analysis of the deposited data

How the results depend on the processing

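All values of peak density here are blocks minus interval in peaks per Mb; 85 of 88 alternatives kept their sign, and the cause of the changes was not tested. With the rest of chromosome 6 as reference the difference was 74.2 for H3K4me3, 134 for H4K5acK8ac, 209 for H4K5ac, 162 for H4K8ac, 180 for H4K12ac, 153 for H3K27ac, 168 for H3K4me1, 22.6 for H3K36me3, 27 for H3K9me3 and -34.4 for H3K27me3. With peaks closer than 1 kb joined it was 30.6 for H3K4me3, 31.6 for H4K5acK8ac, 37.1 for H4K5ac, 41.1 for H4K8ac, 38 for H4K12ac, 27 for H3K27ac, 59.2 for H3K4me1, 10.1 for H3K36me3, -0.562 for H3K9me3 and 5.57 for H3K27me3. With a −log10 q of at least 5 it was 64.4 for H4K5acK8ac, 73 for H4K5ac, 29.9 for H4K8ac, 71.1 for H4K12ac, 71.6 for H3K27ac, 11.4 for BRD2, 66.3 for H3K4me1, 5.55 for H3K36me3 and 3.51 for H3K27me3, and with at least 1.3 it was 111 for H4K5ac. With zones shortened by 20 kb at each end it was 7.9 for H3K36me3 and 5.9 for H3K9me3. Without the interval's longest stretch free of H3K4me3, chosen after seeing the data, it was 29.7 for H3K4me3, 60.05 for H4K5acK8ac, 80.5 for H4K5ac, 76.3 for H4K8ac, 119 for H4K12ac, 77.8 for H3K27ac, 79 for H3K4me1, 7.04 for H3K36me3, -7.38 for H3K9me3 and 6.92 for H3K27me3. H3K9me3 thus changed sign under joining and without that stretch, and H3K27me3 against the rest of chromosome 6.

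Acetylation minus methylation marks, in log2 ratio, gave 1.33 against the rest of chromosome 6 and between 0.46 and 0.50 with 1 replicate left out, and it no longer passed 0.05 in the exact test under these settings. Joined peaks and shortened zones were not tried for this test.

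The share of H3K4me3 regions of both blocks with a target was, with a peak in at least 1 list enough, 98.8% for H4K5acK8ac, 80.5% for H4K8ac, 95.1% for H4K12ac, 98.8% for H3K27ac, 75.6% for BRD2 and 97.6% for H3K4me1. With at least 50% of the region covered it was 81.7% for H4K5acK8ac, 78% for H4K5ac, 14.6% for H4K8ac, 52.4% for H4K12ac, 1.22% for BRD2, 12.2% for H3K4me1, 1.22% for H3K36me3 and 0% for H3K9me3. With target peaks of −log10 q of at least 5 it was 80.5% for H4K5ac, 19.5% for H4K8ac, 59.8% for H4K12ac, 8.54% for BRD2, 69.5% for H3K4me1, 4.88% for H3K36me3 and 1.22% for H3K9me3. With regions widened by 2 kb on each side it was 75.6% for H4K8ac, 97.6% for H3K4me1, 22% for H3K36me3 and 14.6% for H3K9me3. With 1 replicate left out it lay between 95.2% and 96.6% for H4K5acK8ac, 59.6% and 78.6% for H4K8ac, 95.2% and 98.9% for H3K27ac, 44% and 70.8% for BRD2 and 90.5% and 97.8% for H3K4me1. The median region width was 2457.5 bp with peaks joined and between 2000 and 2172.5 bp with 1 replicate left out. The median BRD2 percentile of members, 54.7, was 38.1 with a −log10 q of at least 5 and 61.2 when ranked by −log10 q.

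Replicate numbers do not pair these libraries. With a replicate block, regions and target peaks of the same number were matched and averaged. BRD2 was then at 57.4% of regions, in place of 43.9%, and no other share left its Wilson interval. For the difference between kinds of mark no replicate block was computed. The lists give no depth, so a target not called at a region is not shown to be absent.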
